A study of Mus musculus and Rattus norvegicus with 96 samples.

Results

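The mitochondrial ribosomal protein genes were followed through 4 ways of preserving the same mouse livers. Members were all genes of the mouse liver count table whose symbol starts with Mrpl or Mrps followed by a digit and whose mean was at least 1 CPM (counts scaled to a common library total) over all 48 libraries. This gave 78 of 24543 genes, of which 49 are named Mrpl and 29 Mrps, and no gene with such a symbol fell under the minimum. All 78 members were among the 13370 genes tested, and all had at least 1 CPM in each of the 48 libraries, with a lowest single value of 1.73 CPM.

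Livers came from 12 male B6C3F1 mice aged 10 to 11 weeks, 6 given water (Con) and 6 given 600 ppm phenobarbital (PB), a drug that induces liver enzymes through the receptor CAR, for 7 days. A piece of each liver was frozen (FR). Another was fixed directly in 10% neutral buffered formalin for 18 to 24 h and embedded in paraffin (FFPE). Later 2 portions of the frozen piece were fixed in 10% formalin for 18 to 24 h (FR>FFPE) or 70% ethanol (FR>OH) and likewise embedded. Every comparison with FR therefore also sets embedded against unembedded tissue, with another way of extracting RNA. Each mouse therefore gave 4 libraries of total RNA depleted of ribosomal RNA, with 6 libraries in each of 8 groups, and library totals ranged from 4952797 to 13702672 counts. The series also holds 48 TempO-Seq libraries, which count a targeted panel of genes, from rat liver, rat lung and the mouse hepatocyte line AML12. All rat libraries are labelled vehicle control.

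Mitochondria translate the few proteins encoded in their own genome with a ribosome of their own, and the protein parts of that ribosome are all encoded in the nucleus, made in the cytosol and imported. Many of them descend from bacterial ribosomal proteins, while others were added in the mitochondrial lineage. The products of this ribosome are core subunits of the respiratory chain and of ATP synthase, of which the hepatocyte makes large amounts. Mrps36 matches the symbol pattern but is known as a subunit of the 2-oxoglutarate dehydrogenase complex, and Mrps18a and Mrps30 are built into the large subunit despite their names.

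Promoters of several members carry short motifs read by factors tied to mitochondrial genes, and 4 of them are shown because the values of these members recur among the results. RefSeq promoter windows (GRCm38.p6, 250 bases before to 50 after the start) were at hand for 69 of the 78 members. Both strands were searched for the 7 letters GCATGCG, the core bound by NRF-1, for CCGGAAG, bound by ETS factors, and for ATGGCGG, bound by YY1. The letters GCATGCG overlap their own reverse complement, so a site can be counted on both strands. Each line gives the 100 bases before the start, 5′ to 3′ on the gene's strand, with matches in capitals. Mrpl32 lies on the minus strand at chr13:14613038-14613137 and holds GCATGCG alone, with 5 matches over both strands. Mrpl22 lies on the plus strand at chr11:58171564-58171663 and holds both GCATGCG and CCGGAAG. Mrpl43 lies on the minus strand at chr19:45006443-45006542 and holds CCGGAAG in 2 places. Mrps26 lies on the plus strand at chr2:130563657-130563756 and holds CCGGAAG on the opposite strand.
Mrpl32: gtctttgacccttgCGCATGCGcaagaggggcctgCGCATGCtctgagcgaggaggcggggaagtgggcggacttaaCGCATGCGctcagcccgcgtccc
Mrpl22: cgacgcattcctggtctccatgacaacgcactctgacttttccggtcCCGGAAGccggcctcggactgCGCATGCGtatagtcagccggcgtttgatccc
Mrpl43: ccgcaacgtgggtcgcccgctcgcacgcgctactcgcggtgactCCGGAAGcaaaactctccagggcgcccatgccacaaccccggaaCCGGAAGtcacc
Mrps26: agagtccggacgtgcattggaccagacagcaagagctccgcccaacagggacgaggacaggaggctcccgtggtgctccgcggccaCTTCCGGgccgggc

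Over the whole windows, CCGGAAG was present in 24 of 69 members (34.8%), against 17.7% of 10280 tested genes with a promoter and 9.14% of all 27025 promoters. ATGGCGG was present in 13 members (18.8%), against 8.20% of tested genes and 4.21% of all promoters. GCATGCG was present in 8 members (11.6%), against 6.43% and 3.65%. At least 1 of the motifs occurred in 35 of 69 members (50.7%), against 28.6% of tested genes and 15.3% of all promoters. These matches describe letters in a window and were not tested as binding sites.

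In frozen liver the members differed in level. Mean CPM over the 12 FR libraries had a median of 18.5 over the 78 members, with a range of 4.94 to 50.4, against a median of 12.8 over all genes tested. For a single member, the coefficient of variation between these libraries was 10.8% at the median. By CPM without regard to length, the most counted members were Mrps7, a protein that starts assembly of the head of the small subunit, at 50.4 ± 5.91 (SD, n = 12), Mrpl15 at 43.4 ± 3.45 and Mrpl10, part of the base of the stalk, at 42.2 ± 3.36.

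Per kilobase of transcript, the scale on which genes can be set beside each other, members spread over 36.3-fold in FR around a median of 14.5 CPM per kb. Mrps21, a small subunit protein with a bacterial counterpart, was highest at 53.5 ± 8.27 CPM per kb, followed by Mrpl52, a protein added in mitochondria, at 49.9 ± 5.00 and Mrpl20 at 36.9 ± 4.54. Mrps26 at 1.93 ± 0.228, Mrps25 at 1.91 ± 0.148 and Mrpl47 at 1.47 ± 0.156 were lowest. In this order all 77 pairs of neighbours had overlapping ranges, so only members far apart in the order can be told from each other. Medians per kb were 15.9 for large subunit and 14.3 for small subunit proteins with a bacterial counterpart, and 13.7 and 12.4 for those without. Mrps18a and Mrps18b, paralogs of Mrps18c, were classed with those without. Lengths were the median of the annotated transcript models, which for Mrpl32, Mrpl51, Mrpl57 and Mrps26 exceeded the span of the gene in the count table. With the shortest model of each gene the median was 16.2 CPM per kb, Mrpl30 took the place of Mrpl20 among the highest, and the same 3 members were lowest.

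All of the members' genes lie on 17 chromosomes, and 65 of them overlap no other gene of the table. Mrpl21, Mrpl43, Mrpl53, Mrps23 and Mrps6 overlap a gene on the same strand, the last of these sharing its locus with the transporter gene Slc5a3, and 10 members overlap a gene on the opposite strand, among them Mrpl41 with Dph7. The kit used marks strand, but whether counting used it is not given in the sources used here, so values of these members may include reads of their neighbours.

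The summed level of the 78 members was lower after each kind of processing than in FR. In CPM of the total over all genes of the count table it was 1593 ± 87.9 in FR (SD, n = 12, from 1459 through a median of 1589 to 1732). It was 1418 ± 70.7 in FR>OH (1310 to 1514), 1455 ± 76.6 in FR>FFPE (1314 to 1593) and 1279 ± 55 in FFPE (1185 to 1377). FFPE libraries lay wholly below FR libraries, while those of FR>OH and FR>FFPE overlapped them. In bulk tissue, fewer cells that express these genes and less RNA per cell cannot be told apart.

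**Figure D1:**
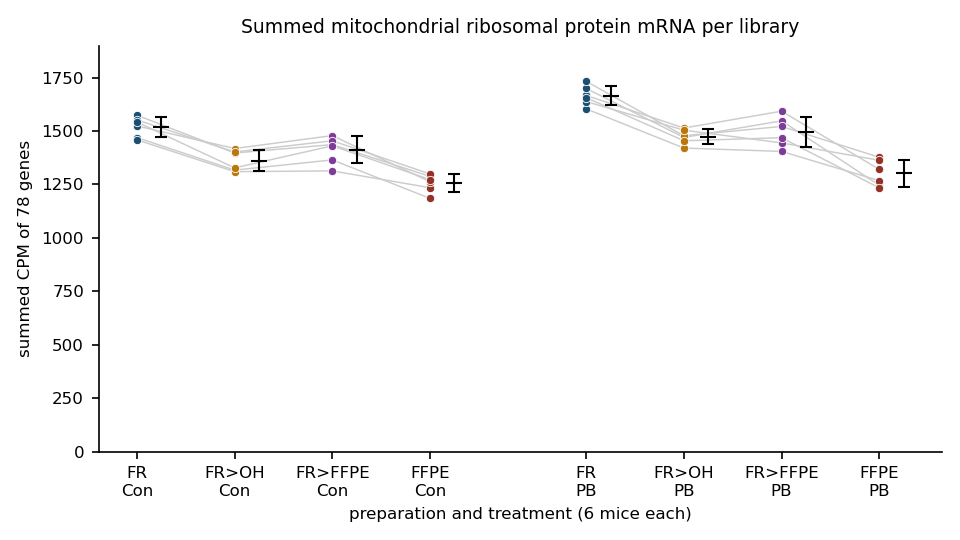
Summed CPM of the 78 mitoribosomal genes in each of the 48 libraries (points), by preparation and treatment, with group means and SDs (bars). FR libraries lie between 1459 and 1732 CPM and FFPE libraries between 1185 and 1377 CPM, with no overlap.

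Facts of the whole series bear on how such sums are read. The total of sequenced reads per library was inferred as the divisor that links the deposited counts to the deposited log2 CPM values. The methods of the study call this divisor the total library size of the sample. Reads assigned to genes made up 48.5% ± 1.76 of sequenced reads in FR (n = 12), between 31.7% and 44.9% in FR>OH and FR>FFPE, and 21.4% to 27.5% in FFPE, where the ribosomal RNA precursor Rn45s rose from under 1.31% to 8.13% or more of gene counts. Over all 13370 genes, log2 fold changes had a median of 0.32 in FFPE vs. FR, 0.34 in FR>FFPE vs. FR and 0.18 in FR>OH vs. FR, and changes of members are given relative to it. Beside this scaling by the total of the kept genes, calls are given with TMM, which brings the FFPE vs. FR median to 0.041, and with division by all sequenced reads, which brings it to -0.63. Cyp2b10, the classic target of phenobarbital, was at 2.45 CPM or less in all Con and at 1078 CPM or more in all PB libraries. Markers of hepatocytes (Alb, Ttr, Apoa1, Apob, Cps1 and Cyp2e1) summed to between 62794 and 116637 CPM in FR and matched the tissue label.

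Direct fixation and embedding were compared with freezing (FFPE vs. FR), and 47 of 78 members were called lower in Con and in PB mice alike, against 11.7% of all genes tested. A gene was called when both treatments had an adjusted p under 0.05 in edgeR's quasi-likelihood test and the same direction. Only 5 members were called higher, against 39.5% of all genes. The median member had a log2 fold change of -0.48, which is -0.81 relative to the median of all genes, and 75 of the 78 members lay below that median. TMM called 62 members lower and 1 higher (22.4% and 23.2% of all genes), and division by all sequenced reads called 78 lower and 0 higher (59.2% and 3.34%), and since a scaling moves all genes of a library together, it leaves the relative median where it is. In 23 members every FFPE library was below every FR library, against 4.13% of all genes, and 42 members were lower in each of the 12 mice, against 11.7%. Taken mouse by mouse, the members' median relative to all genes ranged from -0.80 to -0.58 and was below 0 in 12 of 12 mice.

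**Figure D2:**
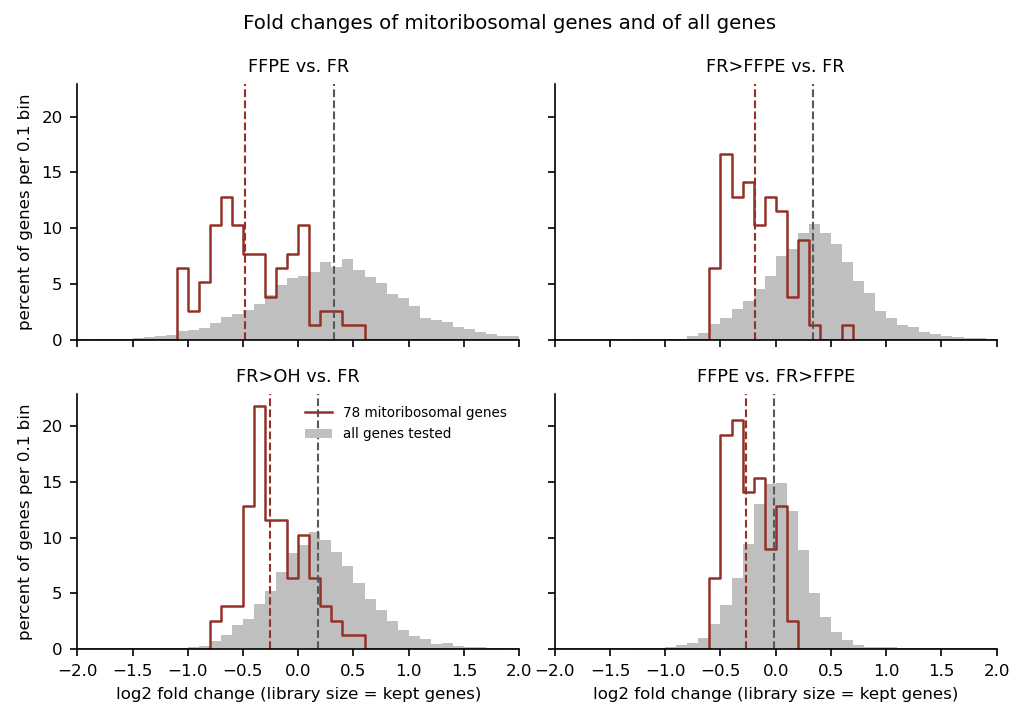
Distribution of log2 fold changes, as percent of genes per bin, for the 78 mitoribosomal genes (red line) and all genes tested (grey), in 4 comparisons, with the medians dashed. In FFPE vs. FR the medians are -0.48 and 0.32, a distance of -0.81, which a change of scaling cannot alter, while it moves the position of 0.

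The largest falls were in both subunits. Mrpl41, a large subunit protein without a bacterial counterpart (chr2:24972470-24975099 as the count table gives it), went from 15.1, 16.8 and 19.4 CPM (lowest, median and highest FR library) to 6.23, 8.05 and 9.91 in FFPE. The groups did not overlap, the log2 fold change was -1.09 ± 0.07 (SE), or -1.42 relative to all genes, and the adjusted p was 2.30e-14 in Con and 3.01e-12 in PB mice. Mrps18c, the small subunit counterpart of bacterial S18, went from 8.68, 9.62 and 12.6 CPM to 3.34, 5.05 and 7.07. It changed by -1.05 ± 0.12, with adjusted p of 6.89e-07 and 1.16e-06, and again no FFPE library reached an FR library.

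Mrpl14 lies at the interface between the subunits, where the assembly factor Malsu1 docks. Its CPM fell from 18.3, 23.4 and 30.5 in FR to 7.27, 10.9 and 15.2 in FFPE, a log2 fold change of -1.02 ± 0.08 with adjusted p of 9.94e-12 and 2.88e-10. Mrps21, the most abundant member per kb in FR, fell from 19.1, 23.2 and 28.8 to 8.29, 11.2 and 15.5 CPM, by 1.01 ± 0.06 on the log2 scale with adjusted p of 1.03e-12 and 3.80e-13. Both kept the FFPE libraries wholly below the FR libraries. Mrps28, another small subunit protein, changed by -1.01 ± 0.08 with adjusted p of 7.50e-12 and 1.01e-07, but its groups overlapped, since FR spanned 13.4 to 17.2 CPM with a median of 15.7 and FFPE spanned 4.71 to 14.0 with a median of 7.27.

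Mrpl21 fell from 12.4, 14.0 and 15.8 CPM to 3.23, 6.74 and 10.8, a change of -0.99 ± 0.11. Mrps16, mutated in a human deficiency of mitochondrial translation, fell from 14.0, 16.8 and 18.9 to 6.51, 8.69 and 10.9, a change of -0.90 ± 0.08. Mrpl22, which lines the tunnel through which new chains leave and whose promoter is printed above, fell from 6.82, 8.41 and 11.5 to 2.83, 4.81 and 5.62, a change of -0.90 ± 0.11. The groups were apart for these 3 genes as well. Relative to all genes the 8 members of largest fall lay between -1.42 and -1.22, and they were lower in 12 of 12 mice and called lower under TMM, under division by all reads and with mouse in the fit. They were also called lower with the L number in the fit, a number in the library titles that runs with the preparation and whose meaning is not given in the labels.

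**Figure D3:**
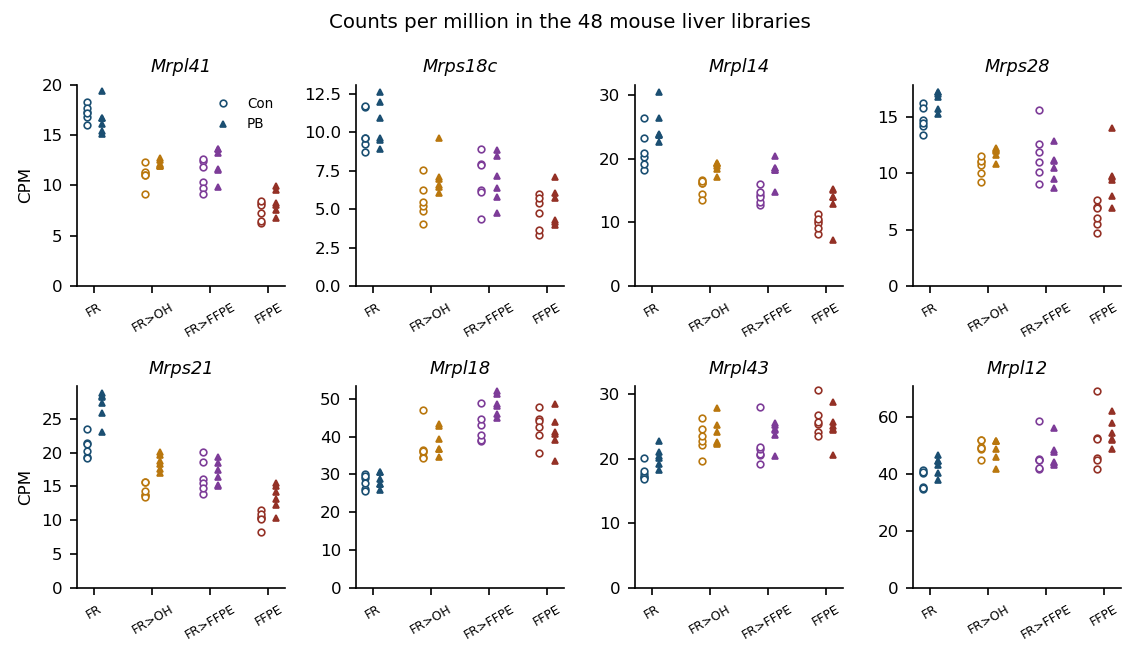
CPM of 8 mitoribosomal genes in each library (points) for FR, FR>OH, FR>FFPE and FFPE, coloured by preparation, with Con mice as open circles and PB mice as filled triangles. Mrpl41, Mrps18c, Mrpl14, Mrps28 and Mrps21 are lower in FFPE than in FR under every scaling, while the rises of Mrpl18, Mrpl43 and Mrpl12 turn into falls when counts are divided by all sequenced reads.

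The 5 members called higher did not hold that direction under every scaling. Mrpl18, a protein of the central protuberance, rose from 25.7, 28.3 and 30.7 CPM in FR to 33.5, 42.0 and 48.6 in FFPE, the only member whose libraries were all higher, against 16.1% of all genes. Its log2 fold change was 0.57 ± 0.06, with adjusted p of 1.66e-08 in Con and 1.95e-07 in PB mice, and it was 0.28 under TMM, still called higher, but -0.39 and called lower per sequenced read. Mrpl43, which shares its promoter region with the mitochondrial helicase gene Twnk on the opposite strand, went from 16.9, 18.7 and 22.7 to 20.6, 25.2 and 30.6 CPM. Its fold change of 0.42 was 0.13 and not called under TMM, and -0.53 and called lower per sequenced read.

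Mrpl12, the stalk protein that recruits translation factors, went from 34.5, 40.6 and 46.8 CPM to 41.8, 52.3 and 69.2, so that the groups overlapped. Its log2 fold change was 0.39, against 0.11 (not called) under TMM and -0.56 (called lower) per sequenced read. Mrpl19 (0.28) and Mrps2 (0.23) were called higher but lay below the median of all genes, at -0.04 and -0.09, and per sequenced read both were called lower, at -0.67 and -0.72. Relative to all genes, Mrpl18 at 0.24, Mrpl43 at 0.10 and Mrpl12 at 0.07 were the only members above 0.

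Further members were looked at for their known roles, their paralogs or their locus, whatever their values. Mrpl11, at the base of the stalk beside Mrpl12, fell from a median of 18.7 CPM (14.6 to 20.7) to 12.4 (6.32 to 15.5), a change of -0.56. Mrps12, a protein of the decoding centre, fell from 25.3 CPM (20.3 to 29.6) to 18.1 (13.8 to 21.3), a change of -0.49. Mrps7, with medians of 49.5 and 45.6 CPM, was not called, since its change of -0.15 had an adjusted p of 0.00142 in PB and 0.872 in Con mice. The paralogs Mrps18a, Mrps18b and Mrps18c had changes of -0.15 (not called), -0.61 (called lower) and -1.05 (called lower). Mrps6, at a median of 5.08 CPM in FR and 4.77 in FFPE, was not called either, and Mrps36, which belongs to the dehydrogenase complex, was called lower with a change of -0.72 and was lower in 11 of 12 mice.

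By origin, 22 of 30 large subunit proteins with a bacterial counterpart were called lower and 3 higher, with a relative median of -0.87. Of the 16 small subunit proteins of this kind, 10 were lower and 1 higher (-0.76). Among proteins classed as added in mitochondria, 10 of 21 in the large subunit were lower and 1 higher (-0.70), and 4 of 10 in the small subunit were lower and 0 higher (-0.42). These include Mrps18a in the large and Mrps18b in the small subunit, although both are paralogs of Mrps18c, which was classed with a bacterial counterpart. Whether these classes differ from each other was not tested. The 26 members that were not called also lay below the median of all genes in this comparison.

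**Figure D4:**
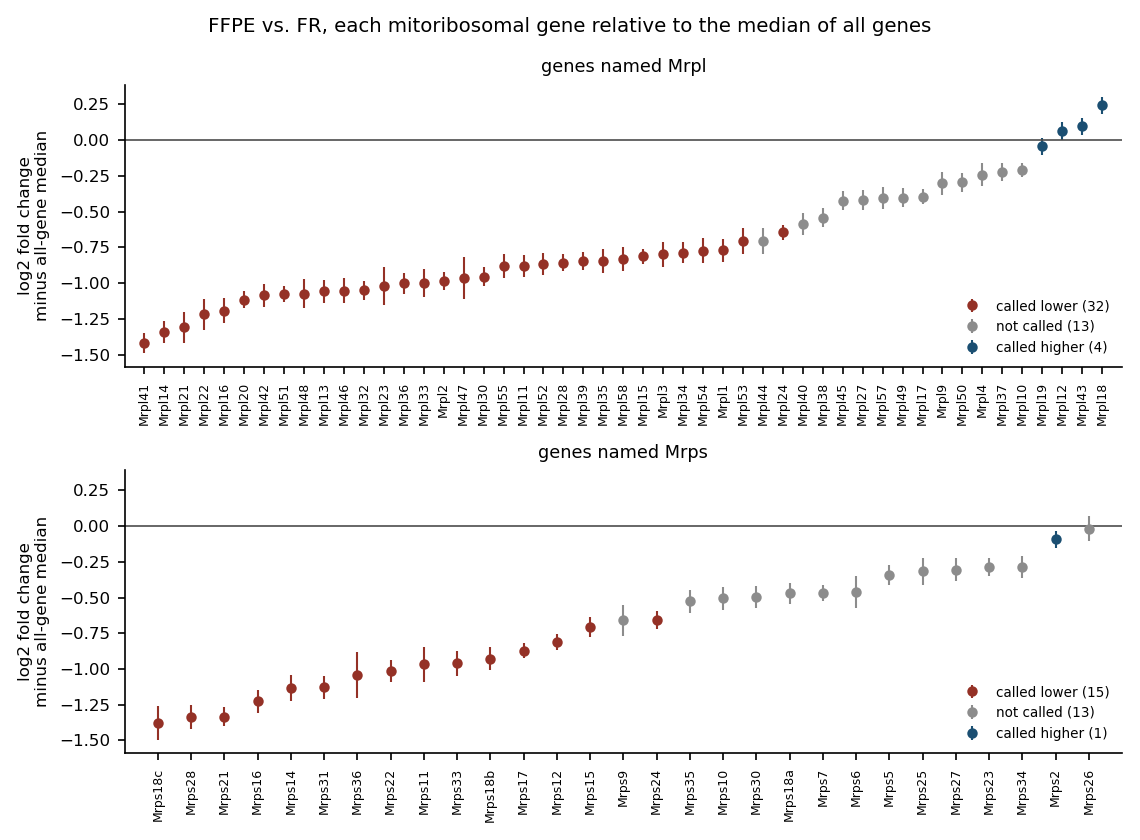
Log2 fold change of each of the 78 mitoribosomal genes in FFPE vs. FR minus the median of all genes (points, bars are SE of the fold change), with genes named Mrpl above and Mrps below, coloured by call. All but Mrpl12, Mrpl43 and Mrpl18 lie below 0, and the 5 calls of higher, in blue, are called lower when counts are divided by all sequenced reads.

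Formalin after freezing was compared with freezing alone (FR>FFPE vs. FR), and 27 members were called lower and 4 higher, against 4.94% and 38.7% of all genes. The median member changed by -0.19, or -0.53 relative to all genes, and 76 members lay below the median. TMM called 55 lower and 1 higher (15.2% and 14.7% of all genes), and division by all reads 61 and 0 (17.8% and 9.37%). With mouse in the fit as a block, 31 were lower and 8 higher, against 7.91% and 47.5% of all genes. Each FR>FFPE library was below each FR library for 5 members (1.02% of all genes), and 22 members were lower in all 12 mice (6.28%).

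Mrps18c had the largest fall, from 8.68, 9.62 and 12.6 CPM in FR to 4.34, 6.76 and 8.89 in FR>FFPE, a change of -0.57 ± 0.11, which was not called with the L number in the fit. Mrpl41 reached 9.12, 11.7 and 13.6 CPM (-0.54 ± 0.06) and Mrpl14 reached 12.7, 15.4 and 20.4 (-0.53 ± 0.07). The groups were apart for Mrpl41 and overlapped for Mrps18c and Mrpl14, and all 3 were lower in 12 of 12 mice. Mrpl18 rose to 39.0, 45.5 and 52.1 CPM, the only member with every library higher (13.9% of all genes), a change of 0.68 ± 0.06 that TMM also called (0.37) and that was 0.30 and not called per sequenced read. Mrps26 (0.38) and Mrpl43 (0.27) were called higher by the total of kept genes alone. Under TMM they were 0.07 and -0.04, and per sequenced read 0.0016 and -0.12, none of them called.

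Ethanol after freezing was compared with freezing alone (FR>OH vs. FR), and 35 members were called lower and 4 higher, against 6.02% and 25.8% of all genes. The median member changed by -0.25, or -0.44 relative to all genes, with 70 members below the median. TMM called 48 lower and 1 higher (14.4% and 14.8%) and division by all reads 60 and 0 (20.7% and 8.29%). In 9 members every FR>OH library was below every FR library (1.15% of all genes), and 31 were lower in all 12 mice (8.92%). With the L number in the fit, 3 were called lower and 0 higher, and calls over all genes fell as well, to 1.88% lower and 9.09% higher, while the relative median was -0.39.

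Mrps36 had the largest fall, from 2.22, 5.10 and 7.29 CPM in FR to 1.73, 2.75 and 5.11 in FR>OH (-0.77 ± 0.15), at a level where its libraries overlap. Mrps18c fell by 0.71 ± 0.11 on the log2 scale to 4.04, 6.32 and 9.62 CPM. Both were lower in 11 of 12 mice and were not called with the L number in the fit. Mrpl32, a zinc-binding protein cut to its mature form by the inner membrane protease and whose promoter is printed above, fell from 12.7, 14.4 and 16.6 to 7.6, 9.32 and 11.4 CPM (-0.64 ± 0.07), with groups apart, and it was called with the L number in the fit too.

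Mrps26 rose from 6.93, 8.27 and 9.99 CPM to 10.4, 11.4 and 15.2 in FR>OH (0.51 ± 0.09). Mrpl18 rose to 34.4, 36.6 and 47.0 (0.43 ± 0.06) and Mrps34, a small subunit protein, rose from 12.3, 14.3 and 20.4 to 16.6, 18.4 and 24.1 (0.37 ± 0.08). All 3 were higher in 12 of 12 mice, and the groups were apart for Mrps26 and Mrpl18, the only 2 members with every library higher (6.27% of all genes). Their sign held under each scaling, but only Mrpl18 was called under TMM and none of them per sequenced read.

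Direct fixation was compared with fixation after freezing (FFPE vs. FR>FFPE), where both arms went through formalin and paraffin. Here edgeR called 18 members lower, against 5.70% of all genes, and 0 higher, against 2.48%, and 34 and 0 members had an unadjusted p under 0.05 in both treatments, against 10.4% and 6.02% of all genes. The median member changed by -0.26, or -0.25 relative to all genes, and 66 members lay below the median. TMM called 16 lower (5.33% of all genes) and division by all sequenced reads 78 (65.3%), and neither called a member higher (4.05% and 0.0823%), as did neither DESeq2 nor limma. With mouse as a block 24 members were lower (12.1% of all genes), and 10 members were lower in all 12 mice, against 6.75% of all genes, although no member had every FFPE library below every FR>FFPE library (0.516% of all genes) or above (0.187%).

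Mrpl22 went from 4.70, 6.94 and 9.43 CPM in FR>FFPE to 2.83, 4.81 and 5.62 in FFPE (-0.58 ± 0.11). Mrpl41 went from 9.12, 11.7 and 13.6 to 6.23, 8.05 and 9.91 (-0.55 ± 0.07), and Mrps16 from 9.57, 12.8 and 15.6 to 6.51, 8.69 and 10.9 (-0.55 ± 0.08). Each of these was lower in 12 of 12 mice with groups that overlapped, and each was among the 8 members of largest fall in FFPE vs. FR, a comparison that uses the same FFPE libraries. None was called with the L number in the fit, which called 2 members lower, 1.67% of all genes lower and 0.711% higher, with a relative median of -0.32.

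Set side by side, the members' median relative to all genes was -0.44 in FR>OH, -0.53 in FR>FFPE and -0.81 in FFPE, all against the same FR libraries. Mouse by mouse these medians ranged from -0.56 to -0.27, from -0.60 to -0.36 and from -0.80 to -0.58, and all were below 0. FFPE vs. FR>FFPE gave -0.30 to -0.11, also below 0 in 12 of 12 mice. With a fold change of at least 2 asked for as well, as in the methods of the study, the count depended on the scaling. On the total of kept genes 5 members were called lower in FFPE vs. FR (Mrpl41, Mrps18c, Mrpl14, Mrps28 and Mrps21), against 1.68% of all genes, and 0 higher, against 11.4%. Under TMM 19 were called lower (4.57% of all genes), and per sequenced read, the divisor of the deposited log2 values, 62 (25.4%). In the other 3 comparisons the fold rule called 0 members on the total of kept genes and under TMM, while per sequenced read it called 2 lower in FR>OH vs. FR (1.25%), 14 in FFPE vs. FR>FFPE (5.80%) and 0 in FR>FFPE vs. FR (0.711%).

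The L number in the library titles runs with the preparation. No label says what it stands for. If it is the sequencing lane, its 10, 10, 10, 9 and 9 libraries go against the 8 libraries per lane of the protocol. FR libraries carried the numbers 2 and 3, FR>OH 4 and 5, FR>FFPE 3 and 4, and FFPE 1 and 2. FR>OH and FR share no number, and neither do FFPE and FR>FFPE, so for these comparisons what the number marks and the preparation cannot be told apart. Under number 2, with 2 FFPE_PB and 2 FR_PB libraries, the members' median relative to all genes was -0.76, with 74 of 78 members below the median. Under number 3 the 6 FR>FFPE_Con libraries set against 4 FR_PB libraries, which also differ in treatment, gave -0.53. Within a group spread over 2 numbers the same measure was 0.05 in FR_PB, -0.01 in FFPE_PB and -0.08 in FR>OH_Con.

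Members have short transcripts, with a median length of 1253 bases against 2873 over all genes tested, and length moved with the FFPE vs. FR difference. Across genes, which are not independent replicates, Spearman's rho between length and fold change was 0.41 over the 78 members and 0.39 over 12980 genes with a length. For transcripts up to 1000 bases, the relative median was -0.96 over 28 members, of which 24 were called lower, and -0.77 over all genes of that length. From 1000 to 2000 bases it was -0.59 over 27 members (11 called lower) against -0.30, and above 2000 bases -0.77 over 23 members (12 called lower) against 0.11. By the shortest transcript model of each gene, the values were -0.95 against -0.57 in the shortest class and -0.66 against -0.24 in the middle class. In the longest class they were -0.46 over 18 members against 0.11. The share of all genes of each length class called lower is not given here. The counts of members called lower by length therefore have no like share beside them. With the trend of length and GC content over all genes removed, the members' relative median was -0.34 in FFPE vs. FR, with 66 members below the median, -0.23 in FR>FFPE, -0.21 in FR>OH and -0.12 in FFPE vs. FR>FFPE.

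**Figure D5:**
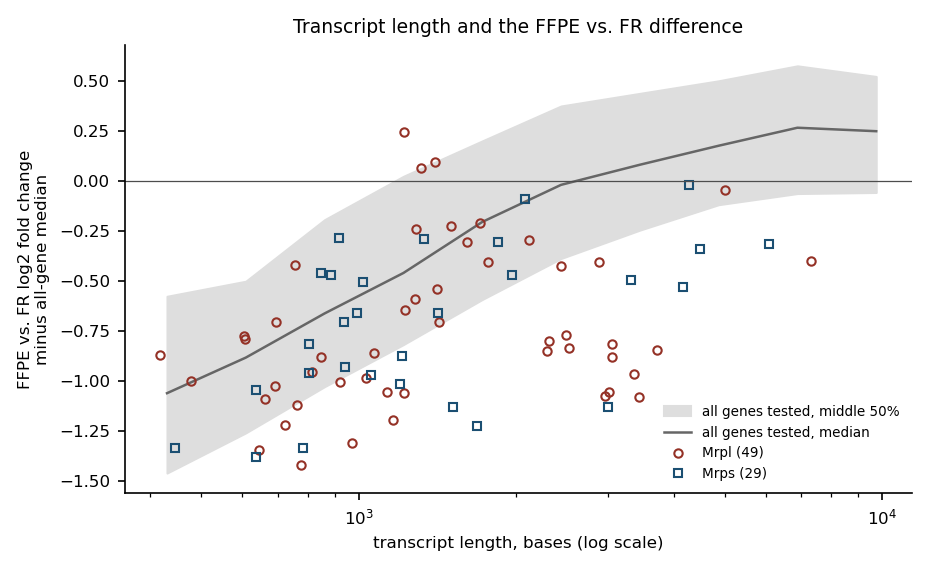
FFPE vs. FR log2 fold change minus the median of all genes against transcript length in bases (log axis), for 49 Mrpl and 29 Mrps genes (points) and for all genes tested (line, median in length bins, and band, middle 50%). Short transcripts lie lower among all genes too, and most members above 2000 bases lie below the band, with a median of -0.77 over 23 members.

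Cell type markers moved in the same libraries. The 6 hepatocyte markers summed to 62794 to 116637 CPM in FR (median 87720) and to 43170 to 60342 CPM in FFPE (median 49072), and all 6 were called lower, with a relative median of -1.22. Of 5 Kupffer cell markers 3 were lower, with sums of 243 to 574 CPM in FR and 163 to 417 in FFPE. Markers of stellate cells and vessel wall (174 to 303 CPM in FR, 152 to 259 in FFPE), sinusoidal endothelium (264 to 342 and 267 to 342) and bile duct (4.75 to 15.2 and 8.79 to 24.5) had 0 lower and at most 1 higher of 6, 5 and 4 tested. Those of lymphocytes and erythroid cells went from 207 to 665 CPM to 103 to 241, with 1 of 3 tested called lower. In FR>FFPE vs. FR, 3 of 6 hepatocyte markers (relative median -0.74) and 1 of 5 Kupffer cell markers (-0.68) were called lower. In FR>OH vs. FR, 4 of 5 sinusoidal endothelial markers (-0.85), 2 of 6 hepatocyte markers (-0.50) and 2 of 5 Kupffer cell markers (-0.60) were lower, and in FFPE vs. FR>FFPE 3 of 6 hepatocyte markers (-0.41) were. No marker of the other types was called lower in these 3 comparisons. No marker was at 0 in all libraries of a preparation, and the part of cell makeup in the members' values was not tested.

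Genes that work beside the mitoribosome were counted from lists drawn up by function. Of all genes tested, 11.7% were called lower and 39.5% higher in FFPE vs. FR. The rule on symbols misses 5 tested proteins of this ribosome, of which Chchd1 (-0.94), Aurkaip1 (-0.58) and Gadd45gip1 (-0.55) were called lower in FFPE vs. FR and Dap3 (-0.08) and Ptcd3 (-0.15) were not called, with a relative median of -0.87. Of 15 translation factors 2 were lower and 2 higher (13.3% each, relative median -0.26), so the share lower was near that of all genes. Taco1, which helps translate cytochrome oxidase subunit I, had -0.49 and the elongation factor Tufm -0.42, while Letm1 (0.47) and the insertase Oxa1l (0.31) were higher but at -0.49 and -0.64 per sequenced read.

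Of 23 tested factors of ribosome assembly and rRNA modification, 3 were lower and 3 higher (-0.43). Ndufab1, the mitochondrial acyl carrier protein, had -0.63 and Malsu1, the partner of Mrpl14, -0.62, while Mrm1 (0.91) and Noa1 (0.54) were higher but at -0.03 and -0.40 per sequenced read. Of 19 genes of mitochondrial transcription and RNA processing, 5 (26.3%) were lower and 4 (21.1%) higher, with a relative median of -0.27. Slirp, a small protein that stabilises mitochondrial mRNAs, had -1.45 and Hsd17b10, a subunit of mitochondrial RNase P, -1.0. Fastk (1.02) was higher under each scaling and the RNA polymerase Polrmt (0.72) was at -0.23 per sequenced read.

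Of 20 mitochondrial aminoacyl-tRNA synthetases and amidotransferase genes, 2 (10%) were lower, near the 11.7% of all genes (Fars2 at -0.37 and Yars2 at -0.36). A further 5 (25%) were higher, against 39.5% of all genes, and the relative median was -0.14. Among these Vars2 had 0.65, which was -0.30 per sequenced read, and Lars2 went from a mean of 106 to 2697 CPM, a change of 4.67 whose relation to the Rn45s share of the same libraries was not tested. Larger sets gave 40 of 46 nuclear complex I genes lower and 0 higher, with a relative median of -1.21, and 59 of 88 cytosolic ribosomal protein genes lower and 0 higher, with -0.84. The same sets gave 30 and 47 lower genes in FR>FFPE vs. FR (-0.81 and -0.62), 34 and 54 in FR>OH vs. FR (-0.70 and -0.53) and 28 and 21 in FFPE vs. FR>FFPE (-0.44 and -0.18). In the same order of comparisons, 4.94%, 6.02% and 5.70% of all genes were called lower. Whether members differ from these sets was not tested.

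The relative FFPE vs. FR median of members with CCGGAAG in the promoter was -0.81 (24 members) against -0.85 without it (45 members). It was -0.89 with GCATGCG (8) against -0.81 without (61), and -0.42 with ATGGCGG (13) against -0.87 without (56). Whether members with and without a motif differ was not tested, and they were not matched for transcript length. Of the 4 members printed above, Mrpl32 (-0.73) and Mrpl22 (-0.90) were called lower in FFPE vs. FR, Mrpl43 was called higher by the total of kept genes alone, and Mrps26 was not called (0.30).

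The response to phenobarbital was measured within each preparation. In FR, edgeR called 5 members (6.41%) higher in PB mice, near the 5.86% of all genes, and 0 lower, against 2.60%. At an unadjusted p under 0.05, 22 members were higher and 0 lower, against 12.5% and 8.45% of all genes. TMM, DESeq2 and limma called 0 lower too. The members' median relative to all genes was 0.12, and 66 of 78 lay above that median. Every PB library was above every Con library for 6 members, against 4.20% of all genes. Mrpl28, a large subunit protein, rose from 29.1, 31.0 and 33.6 CPM in Con to 34.8, 40.6 and 43.1 in PB (0.36 ± 0.08, adjusted p 0.00107). Mrpl54 rose from 11.3, 12.8 and 13.2 to 15.1, 16.6 and 21.0 (0.47 ± 0.11, adjusted p 0.00455). Mrps7 rose from 42.2, 45.0 and 48.6 to 50.4, 56.7 and 57.6 (0.30 ± 0.07, adjusted p 0.00484).

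The Con and PB libraries were apart for these 3 genes and overlapped for the other two. Mrps21 rose from 19.1, 20.8 and 23.5 to 23.0, 27.8 and 28.8 CPM (0.37 ± 0.08, adjusted p 0.0022) and Mrps24 from 19.7, 20.9 and 25.5 to 25.5, 27.6 and 32.3 (0.35 ± 0.09, adjusted p 0.00491). All 5 were also called higher under TMM and under division by all reads. Of the cytosolic ribosomal protein genes, 64 of 88 were higher in PB in the same FR libraries, and of the complex I genes 0 of 46.

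In FR>OH, 10 members were higher in PB, against 8.43% of all genes, and 0 lower, against 3.77%, with 22 and 1 at an unadjusted p under 0.05 (25.1% of all genes), and TMM, DESeq2 and limma also called 0 lower. Groups were apart, with PB higher, for 5 members (4.26% of all genes). The smallest adjusted p belonged to Mrpl20 (0.34 ± 0.08, adjusted p 0.00358), which rose from 15.1, 18.1 and 21.0 to 21.1, 23.1 and 23.9 CPM with groups apart. Mrps21 (0.36, from a median of 14.0 to 18.5) and Mrps22 (0.39, from 10.8 to 13.4), mutated in a human mitochondrial disease, were apart as well. Mrpl13 (0.41), Mrpl51 (0.27) and Mrpl40 (0.35) rose with groups that overlapped. The other members called were Mrpl32, Mrpl50, Mrps18a and Mrps36, all 10 were called under TMM and per sequenced read too, and the relative median over all members was 0.09.

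In FR>FFPE, 3 members (3.85%) were higher in PB, below the 6.24% of all genes, and 0 were lower, against 0.987%. These were Mrpl51 (0.29 ± 0.07, adjusted p 0.00852, medians 26.2 and 31.6 CPM), Mrpl54 (0.43 ± 0.12, adjusted p 0.0165, 12 and 15.0 CPM, groups apart) and Mrpl14 (0.36 ± 0.11, adjusted p 0.0243, 14.1 and 18.3 CPM). At an unadjusted p under 0.05 there were 10 higher and 1 lower, against 14.8% and 3.96% of all genes. Groups were apart, with PB higher, for 2 members (3.19% of all genes). TMM and DESeq2 called 0 higher and 1 lower each, limma called none in either direction, and the relative median was 0.02.

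In FFPE, 8 members (10.3%) were higher in PB, against 4.64% of all genes, and 1 lower, against 1.98%. At an unadjusted p under 0.05, 10 were higher and 3 lower, against 11.8% and 7.45% of all genes. Mrps28 rose from 4.71, 6.45 and 7.57 to 6.94, 9.49 and 14.0 CPM (0.61 ± 0.13, adjusted p 0.00156). Mrps21 rose from 8.29, 10.4 and 11.5 to 10.3, 13.7 and 15.5 (0.39 ± 0.10, adjusted p 0.00955) and was thus called in FR, FR>OH and FFPE. Mrpl14 (0.41), Mrpl28 (0.29) and Mrps14 (0.48) rose too, as did Mrps6, Mrps12 and Mrpl54, and of the higher members Mrps12 alone had groups that did not overlap (2.12% of all genes). Mrpl49 fell from 20.1, 26.9 and 32.5 to 18.6, 19.9 and 23.6 CPM (-0.35 ± 0.10, adjusted p 0.0158), with overlap, and was not called per sequenced read. TMM called 5 members higher and 2 lower, and division by all reads 5 and 0. The relative median over all members was 0.08.

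The difference between the phenobarbital response in a processed preparation and that in FR was tested as an interaction in edgeR. No member passed for FFPE, FR>FFPE or FR>OH, where 8, 4 and 2 members had an unadjusted p under 0.05, against 3.46%, 2.15% and 2.28% of all genes. Since 0 of the 13370 genes passed in any of the 3, this says nothing particular about the members. DESeq2 and limma called 0 members in each as well, as did the fit with mouse as a block. Under L number 2 alone, 2 FR_PB and 6 FR_Con libraries gave a relative median of 0.15, 4 FFPE_PB and 6 FFPE_Con libraries of number 1 gave 0.06, and 6 FR>OH_PB and 3 FR>OH_Con libraries of number 5 gave 0.06. FR>FFPE_Con and FR>FFPE_PB carried different numbers throughout, so there treatment and what the number marks cannot be told apart.

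TempO-Seq, in which short detector oligos are ligated on the target RNA and counted, held 4 members in its rat panel, measured in 6 libraries of each preparation. In liver of male F344 rats, FFPE vs. FR changed most genes of the panel, since 79.7% of 2280 genes were called in either direction under TMM, and the 4 members did not move together. Mrpl19 lay between 78.5 and 119 CPM in FR and between 83.7 and 122 in FFPE, which was -1.59 ± 0.23 under TMM (adjusted p 5.32e-07, edgeR) and -0.0051 without scaling. Mrps2 lay between 1.26 and 3.06 CPM in FR, on 5 to 11 counts, and between 10.1 and 57.4 in FFPE, on 8 to 13 counts, a change of 1.88 ± 0.36 (adjusted p 4.20e-05) that was called without scaling as well. Library totals ran from 139477 to 889125 counts in FFPE, from 2156621 to 3898086 in FR>FFPE and from 3040907 to 3970188 in FR. Counts of Mrps2 thus differed less than its CPM between FR and FFPE.

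Mrpl12 (-0.29) and Mrps16 (0.07) were not called under TMM in this comparison. Without scaling both were called higher, at 1.36 and 1.69, whereas DESeq2 called Mrpl12 lower (-0.47, adjusted p 0.0168) and did not call Mrps16 (-0.11). Relative to all genes of the panel the 4 changes were -1.95 for Mrpl19, -0.64 for Mrpl12, -0.29 for Mrps16 and 1.53 for Mrps2. In FR>FFPE vs. FR of the same livers, where 71.4% of genes were called, Mrpl19 had -1.87, Mrps16 0.52 and Mrps2 1.12, all called, although DESeq2 did not call Mrps16 (0.41, adjusted p 0.0858). Mrpl12 had -0.23, not called under TMM, and 0.46 and called higher without scaling.

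In WKY rat lung, where directly fixed tissue had stayed in formalin for 1 year (FFPE 1yr), 1 FR library held 12 counts in all. The other libraries held 2013606 to 2505947 counts in FR, 802686 to 1786807 in FR>FFPE and 226751 to 1634577 in FFPE 1yr. FR>FFPE vs. FR gave -1.15 for Mrpl19, 1.37 for Mrps16 and 1.98 for Mrps2, all called, as were 77.8% of 2291 genes. Mrpl12 had -0.39 (adjusted p 0.0298), and without that library -0.37 (adjusted p 0.0609), no longer called though about as large. Without scaling it was 0.32, not called. In FFPE 1yr vs. FR, with 76.8% of genes called, the values were -1.13, 0.51 and 1.68, all called, although DESeq2 did not call Mrps16 (0.30, adjusted p 0.343). Mrpl12 had -0.19, not called under TMM, and 0.51 and called higher without scaling. Without scaling, Mrps16 and Mrps2 were called higher in all 4 of these comparisons. Mrpl19 was called lower in 3 of them and was at -0.0051 ± 0.22 in rat liver FFPE vs. FR, not called.

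AML12 cells, a hepatocyte line from CD-1 mice, were exposed for 10 minutes to 0.006%, 0.03% or 0.1% neutral buffered formalin or to buffered saline as vehicle, with 3 libraries a group. The panel held 7 members, of which Mrpl19 stayed at 4 counts or fewer and 6 passed the filter. At 0.006% and 0.03% edgeR called 0 of 6 members and 0 of 1570 genes, with 0 members at an unadjusted p under 0.05. At 0.1%, where 8.60% of genes were called lower, Mrps34 fell from 706.5, 765 and 777 CPM in the vehicle libraries to 493, 552 and 592 (-0.65 ± 0.14, adjusted p 0.00482), with no overlap, and it was called lower without scaling too (-0.46). Mrps18b (-0.44), Mrps17 (-0.34), Mrps16 (-0.23), Mrps6 (-0.22) and Mrps2 (-0.21) were not called. DESeq2 called 2 members, Mrps18b being the other one.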

How the data were processed

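RNA-seq was run on 48 mouse liver libraries (100 ng of total RNA, stranded kit, rRNA depleted, 8 libraries per lane, embedded tissue taken as 10 µm curls after about 16 months in the block, and with shorter fragmentation than FR). The deposited expected counts per gene were estimated by the authors, per their methods from reads aligned with STAR 2.5.3a to mm10 in Partek. Whether counting used strand is not given in the sources used here. A deposited table of log2 CPM values served limma as an alternative. Its divisor, worked out per library from these values and the counts, was taken as all sequenced reads. The TempO-Seq tables hold the authors' expected counts per gene. Of the mouse count values, 92.0% were whole, and all were rounded.

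Genes with a geometric mean above 1 count (offset 0.0001) were kept, library size was the total over kept genes, and edgeR 4.0.16 (glmQLFit and glmQLFTest, R 4.3.3) was fitted to 8 groups with Benjamini-Hochberg adjustment over all genes at a threshold of 0.05. Preservation calls needed both treatments, and their fold change is the mean of both. Per-mouse values used log2(CPM + 0.5). TempO-Seq counts were tested in edgeR with TMM. Alternatives were TMM, total reads, DESeq2 1.42.0, limma 3.58.1, no filter, mouse as block, the L number of the titles (called on the contrast averaged over treatments), thinning, a fold change of at least 2 and removal of the length and GC trend with splines. The edgeR fits were tested on simulated data, and the DESeq2 and limma fits were not. Lists of markers and functions, and the members, were chosen with earlier results of these data known. Named were the 8 largest falls and 4 largest rises among calls in FFPE vs. FR, the 3 largest each way in other comparisons, up to 6 PB calls with the smallest adjusted p, the extremes of level, the Mrps18 paralogs, Mrpl12, Mrps12, Mrpl11, Mrps7, Mrps6, Mrps36, the TempO-Seq members and 2 each way per functional list. Others were named after their values were seen (Mrps2, Mrpl32 in FFPE vs. FR, and the further PB calls).

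Library names carry the mouse, so libraries of a mouse are paired. Residuals of the same mouse correlated at 0.70 at the median (lowest 0.46, above 0.1 in 72 of 72 pairs), and those of different mice at -0.12. The 6 libraries of a group are 6 mice. No 2 libraries were identical. In the smallest library 1 CPM is 4.95 counts. Sequences, lengths and GC content came from RefSeq promoter windows and transcript models of GRCm38.p6, with models for 97.1% of genes tested.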

Additional observations from a re-analysis of the deposited data

Results flagged for a closer look

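Among 344 sets of 6 libraries, 18 (5.23%) held a highest or lowest library that stood farther from its nearest neighbour than Dixon's 95% value allows, where chance gives about 1 in 20. In FR>OH, these were Mrps18c at 9.62 CPM in PB mouse 20B (highest), Mrpl14 at 17.0 in PB mouse 75C (lowest), Mrpl18 at 47.0 in Con mouse 21C, Mrps34 at 21.5 in Con mouse 8A and Mrpl51 at 32.3 in Con mouse 8C (all highest), and Mrps18a at 14.8 in Con mouse 90C (lowest).

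In FR>FFPE, Mrpl43 at 28.0 CPM and Mrpl12 at 58.7 were both highest in Con mouse 21C, the library of the lowest total in its group. PB mouse 20D was lowest for Mrpl43 at 20.4 and for Mrpl20 at 16, PB mouse 20B highest for Mrps7 at 51.7 and PB mouse 18B highest for Mrpl49 at 27.4.

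In FFPE, PB mouse 18D was lowest for Mrpl14 at 7.27 CPM and for Mrpl22 at 2.83, and Con mouse 8A was highest for Mrps22 at 10.5 and lowest for Mrpl11 at 6.32. PB mouse 18B was lowest for Mrps22 at 7.25 and PB mouse 75C highest for Mrps25 at 15.2. The summed level of the 78 members stood apart in none of the 8 groups. No member moved one way in all Con mice and the opposite way in all PB mice.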

How the results depend on the processing

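The members' relative median was below 0 in all 4 preservation comparisons under every alternative run, though a scaling cannot change it by construction, and 0 members called lower became called higher. It moved most when the trend of length and GC content was removed, to -0.34 in FFPE vs. FR, -0.23 in FR>FFPE vs. FR, -0.21 in FR>OH vs. FR and -0.12 in FFPE vs. FR>FFPE. With the L number it was -0.32 in the last of these, and under L number 2 alone, an alternative chosen after seeing the data, -0.76 in FFPE vs. FR, as were the length classes by shortest model, the PB values within an L number and the fold rule under TMM and total reads. Counts moved more. In FFPE vs. FR, members called lower were 78 with total reads and with limma and 5 with a fold of at least 2, and those called higher were 1 with TMM and DESeq2, 0 with total reads, limma and the fold rule, and 3 after thinning to the smallest library. The fold rule called 19 lower and 0 higher under TMM and 62 and 0 with total reads. In FR>FFPE vs. FR, 55, 61, 58 and 60 were lower with TMM, total reads, DESeq2 and limma and 0 with the fold rule, and 1, 0, 1 and 0 were higher, with 8 for mouse as a replicate block, 1 with the L number, 2 after thinning and 0 with the fold rule. In FR>OH vs. FR, 60 and 59 were lower with total reads and limma, 3 with the L number, 0 with the fold rule (also under TMM) and 2 with it and total reads, and 1 was higher with TMM and DESeq2 and 0 with total reads, limma, the L number or the fold rule. In FFPE vs. FR>FFPE, 78 were lower with total reads and limma, 2 with the L number, 10 after thinning, 0 with the fold rule (also under TMM) and 14 with it and total reads. The paired fit moved no other count by over 1.5 times (48 and 5 in FFPE vs. FR, 24 and 0 in FFPE vs. FR>FFPE). No paired analysis was possible for PB vs. Con, because each mouse had 1 treatment.

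With a fold of at least 2, 0 members were called in PB vs. Con of any preparation. In FR>OH, 19, 17 and 5 were higher with total reads, limma and thinning. In FR>FFPE, 0 were higher and 1 lower with TMM and with DESeq2, 1 higher with total reads and 0 with limma. In FFPE, 5 higher and 2 lower with TMM became 5 and 0 with total reads, 4 higher with DESeq2 and after thinning, 5 higher with no filter and 0 lower with limma. In AML12 at 0.1%, DESeq2 called 2 members, and the count lay between 1 and 2 when each replicate was left out in turn.

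Signs turned for named genes called higher. In FFPE vs. FR, total reads and limma gave -0.39 and -0.39 for Mrpl18, -0.53 and -0.54 for Mrpl43, and -0.56 and -0.57 for Mrpl12. Mrpl19 was at -0.0024 with TMM, -0.67 with total reads, -0.010 with DESeq2 and -0.68 with limma. In FR>FFPE vs. FR, limma gave -0.0057 for Mrps26, and Mrpl43 was at -0.041, -0.12, -0.049 and -0.12 in the order TMM, total reads, DESeq2, limma. Without scaling, Mrpl12 in the rat panel turned to 0.46 and 1.36 in liver FR>FFPE and FFPE and to 0.32 and 0.51 in lung FR>FFPE and FFPE 1yr. These turns follow from the other divisor, which moves all genes together. Other named results had the same call 680 times, lost a call 58 times and gained a call 15 times.

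Depth limits low members most, since 1 CPM is 4.95 counts in the smallest library, and thinning every library to that total cut the FFPE vs. FR calls from 47 to 44. The L number runs with preparation, all comparisons with FR also differ in embedding and extraction, and length goes along with the size of the fall.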

Other observations

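In FR>FFPE vs. FR the members' median relative to all genes did not overlap between treatments, with -0.44 to -0.36 in the 6 Con mice and -0.60 to -0.48 in the 6 PB mice. In FFPE vs. FR the ranges overlapped, at -0.76 to -0.58 and -0.80 to -0.63, as they did in FR>OH vs. FR, at -0.45 to -0.33 and -0.56 to -0.27. FR>FFPE_Con libraries all carried L number 3 and FR>FFPE_PB libraries all number 4, so that treatment and what the number marks cannot be told apart there, and no member passed the test of the interaction.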
